A study of Ursus arctos with 12 samples.

Results

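Genes that handle glutamine, alanine, asparagine and the import of amino acids were followed in the thigh muscle of brown bears between summer and hibernation. The set was taken from the count table by symbol: GLUL, GLUD1, GPT, GPT2, ASNS, SLC38A2, SLC7A5, SLC3A2 and SLC7A1, which are 9 of the 30249 genes listed. All 9 had enough reads to be tested, at least 30 over the 12 libraries, as did 17290 genes in all. The 12 libraries came from the vastus lateralis of 6 free-ranging Ursus arctos aged 2 to 3 years. Each bear gave a biopsy during hibernation in winter (February) and another during the active period in summer (June), both under anaesthesia. Food intake and activity of these wild animals were not controlled, and the fast and the inactivity of winter cannot be told apart here.

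Muscle is a large store of amino acids. When its own amino acids are broken down, the nitrogen leaves the tissue mainly as glutamine and alanine, which carry it to the gut, kidney and liver. Glutamine synthetase (GLUL) joins ammonia to glutamate, glutamate dehydrogenase (GLUD1) frees or binds ammonia in the mitochondrion, and the alanine aminotransferases move the amino group of glutamate to pyruvate. Asparagine synthetase (ASNS) takes its nitrogen from glutamine. Transporters of the SLC38, SLC7 and SLC3 families bring amino acids in, and several of them are known to be induced when amino acids run short.

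Libraries held 20191068 to 27283155 reads on genes in summer and 16742406 to 32140160 in winter. Levels are given as log2 CPM, where CPM are reads relative to the size of the library after TMM scaling, and SE is the standard error of the log2 fold change, winter over summer. Genes differ in length, so these levels were compared between seasons and not between genes. The winter library of bear 1509 stood apart on the second principal component, at −98.6 against 6.35 to 23.1 in the other winter libraries. On the first component, which held 41.5% of the variance, summer libraries lay at −65.8 to −41.9. The winter libraries of bears 1509 and 1511 were at 30.2 and 25.5 there, and the other winter libraries at 59.0 to 74.4. The labelled tissue held its markers: each of the 8 muscle fibre genes had at least 35952 reads in every library. Their summed level ran from 98810 to 178870 CPM in summer and from 105465 to 146211 in winter.

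Of the 9 genes, 4 fell and 1 rose in winter at an adjusted p below 0.05 (quasi-likelihood test of edgeR, adjusted by Benjamini-Hochberg over all genes tested, here and throughout). By the same rule 39.5% of all tested genes were called, 19.9% lower and 19.6% higher. With the bear as a block, again 4 of the 9 genes fell and 1 rose, where 40.8% of all genes were called, 21.2% lower and 19.6% higher. GLUL, GLUD1, GPT and ASNS were the genes that fell, and SLC38A2 the one that rose. GPT2, SLC7A5, SLC3A2 and SLC7A1 were not called. The median log2 fold change was −0.24 over the 9 genes and −0.0021 over all genes tested. Each of the 5 called genes moved in the same direction in 6 of 6 bears, as did 19.0% of all genes downward and 18.4% upward.

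**Figure D1:**
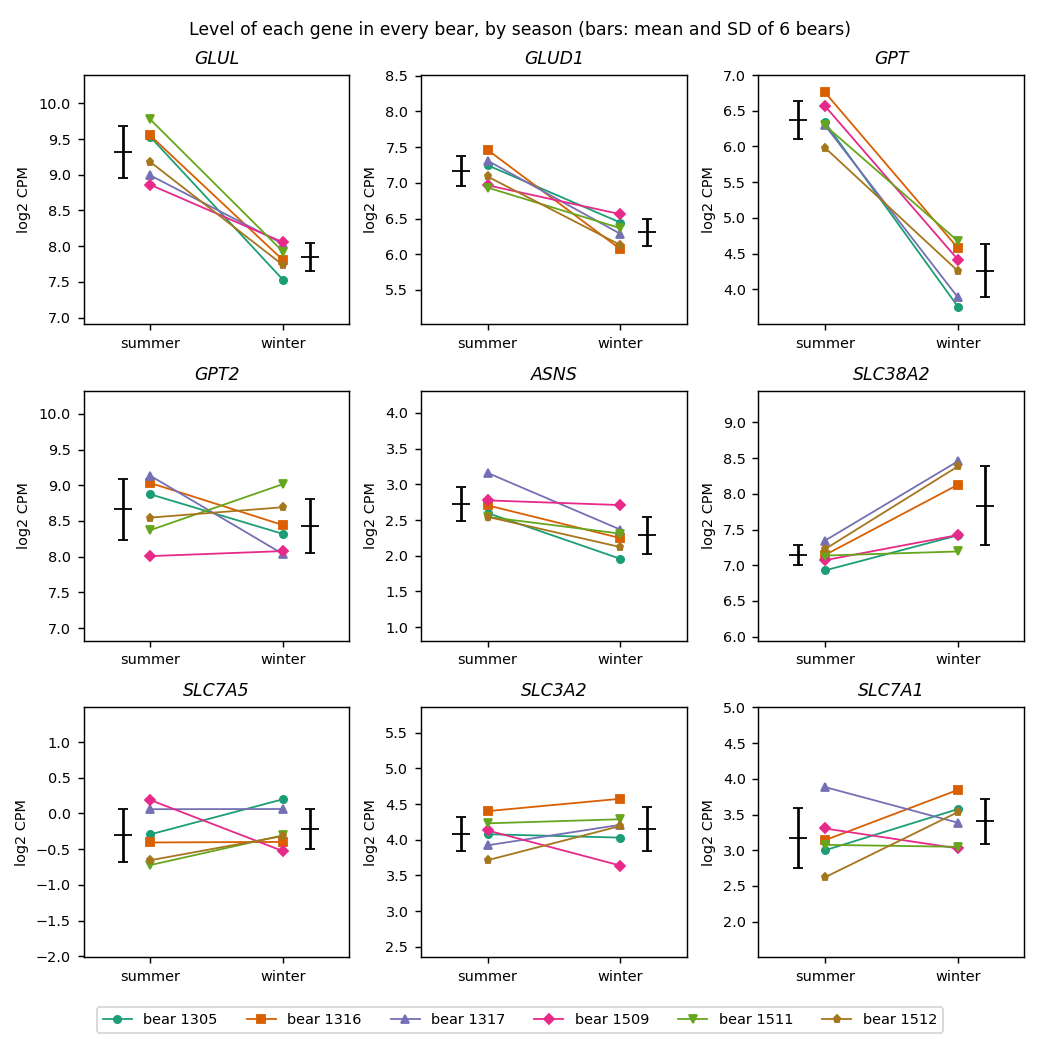
Level of each of the 9 genes in log2 CPM (vertical axis, the same span in every panel) in summer and winter, with 1 coloured line per bear and black bars for the mean and SD of 6 bears. Lines of GLUL, GLUD1 and GPT fall without overlap between the seasons, whereas those of GPT2, SLC7A5, SLC3A2 and SLC7A1 cross.

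GLUL, the enzyme that makes glutamine, was at 8.86, 9.36 and 9.78 log2 CPM in summer (lowest, median and highest of 6 bears) and at 7.53, 7.86 and 8.05 in winter. Every winter library lay below every summer library. Such separation was seen for 3 of the 9 genes, each lower in winter. Of all genes tested 17.3% were separated, 8.21% lower and 9.12% higher in winter. GLUL was 2.82-fold lower in winter, at −1.50 on the log2 scale (SE 0.16, adjusted p = 2.28e-05). On the linear scale its mean and SD over 6 bears were 654 ± 161 CPM in the active period and 232 ± 31.0 in hibernation. The difference within single bears ran from −2.01 in bear 1305 to −0.81 in bear 1509. The winter libraries were closer together than those of summer, with an SD of 0.20 against 0.36 log2 CPM; this change in spread was not tested.

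GLUD1, the mitochondrial glutamate dehydrogenase, was at 6.93, 7.17 and 7.46 log2 CPM in summer (lowest, median, highest) and at 6.07, 6.32 and 6.56 in winter, again with no overlap. It was 1.82-fold lower in winter, at −0.86 on the log2 scale (SE 0.12, adjusted p = 9.92e-05). It fell most in bear 1316, by 1.39, and least in bear 1509, by 0.41 on the log2 scale.

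The 2 alanine aminotransferases catalyse the same reaction, GPT in the cytosol and GPT2 in the mitochondrion. GPT had the largest fold change of the 9 genes in winter. Its level was 5.98, 6.32 and 6.76 log2 CPM in summer and 3.76, 4.34 and 4.67 in winter (lowest, median, highest), and the seasons were more than 1 log2 unit apart at their nearest libraries. GPT was 4.28-fold lower in winter, at −2.10 on the log2 scale (SE 0.17, adjusted p = 4.08e-06). Only 2.12% of all tested genes had a lower log2 fold change. In single bears the fall ran from −2.58 in bear 1305 to −1.62 in bear 1511. In reads, the 6 summer libraries held 1613 to 2265 of GPT and the winter libraries 261 to 584.

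GPT2 was at 8.01, 8.71 and 9.14 log2 CPM in summer and at 8.04, 8.38 and 9.02 in winter, with almost the same range in both seasons. It was not called, at −0.24 on the log2 scale (SE 0.21, adjusted p = 0.379), with a 95% interval from −0.69 to 0.21. With 1 bear left out it ran from −0.064, without bear 1317, to −0.44, without bear 1511, and was called in no case. The bears divided evenly, with 3 higher and 3 lower in winter. Bear 1317 had the lowest difference at −1.10, and bear 1511 the highest at 0.65.

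Set against each other within each library, GPT2 gave 2.72 to 7.17 reads per read of GPT in summer (median 5.33) and 12.7 to 23.8 in winter (median 19.1). These ratios of reads are not corrected for gene length, so only their change between seasons can be read. The season difference of GPT2 exceeded that of GPT by 1.88 ± 0.37 on the log2 scale (mean and SD over the bears), and did so in 6 of 6 bears, by 1.31 to 2.27. An exact two-sided sign-flip permutation test over the 6 bears gave p = 0.03125, the smallest that 6 bears allow. Adjusted over the 2 pairs of genes tested in this way it was 0.0625, and with 1 differing pair of 2 no lower adjusted value is possible, so the corrected test could not pass the threshold here. The 95% interval of the difference was 1.49 to 2.27.

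**Figure D2:**
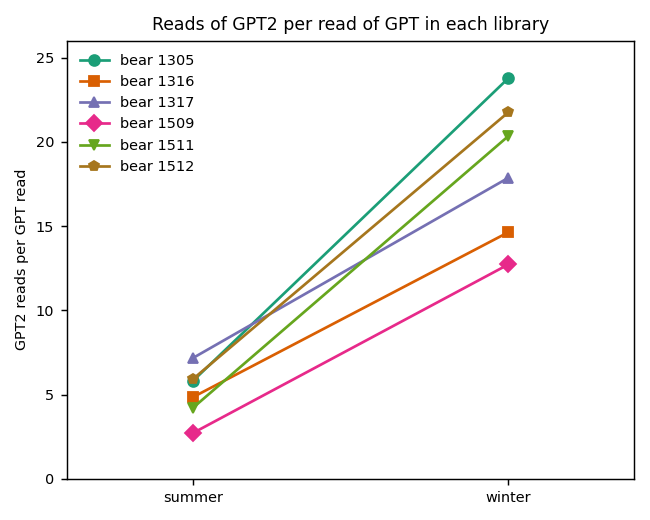
Reads of GPT2 divided by reads of GPT in each library (vertical axis, a plain ratio that starts at 0), with summer and winter of each of the 6 bears joined by a line. All 6 lines rise, from 2.72 to 7.17 in summer to 12.7 to 23.8 in winter.

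ASNS, the asparagine synthetase and a classic target of the amino acid shortage response, was low in this muscle, at 81 to 204 reads per library. Its level was 2.54, 2.65 and 3.16 log2 CPM in summer and 1.96, 2.28 and 2.71 in winter (lowest, median, highest), and the seasons overlapped. ASNS was 1.36-fold lower in winter, at −0.44 on the log2 scale (SE 0.16, adjusted p = 0.0395), and in single bears it ran from −0.80 in bear 1317 to −0.066 in bear 1509. The call was lost when bear 1305, 1316, 1317, 1511 or 1512 was left out, at an adjusted p of 0.0901, 0.0909, 0.12, 0.0569 and 0.0762 in that order. Over all alternatives ASNS ran from 0.0119 to 0.12 in adjusted p.

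SLC38A2, the sodium-coupled transporter SNAT2 that takes up glutamine, alanine and other small neutral amino acids, was the gene that rose. Summer libraries were at 6.93, 7.14 and 7.34 log2 CPM and winter libraries at 7.19, 7.78 and 8.46 (lowest, median, highest). The winter libraries were spread more widely, with an SD of 0.55 against 0.14, a change in spread that was not tested. SLC38A2 was 1.71-fold higher in winter, at 0.77 on the log2 scale (SE 0.21, adjusted p = 0.00906). Bears 1512, 1317 and 1316 rose by 1.16, 1.11 and 0.98 on the log2 scale. The difference was 0.49 in bear 1305, 0.35 in bear 1509 and 0.057 in bear 1511, so the size of the rise differed widely among the animals. The adjusted p of SLC38A2 was at most 0.0348 under any alternative, without bear 1512.

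SLC7A5 and SLC3A2 encode the light and heavy chains of the transporter LAT1, which exchanges leucine and other large neutral amino acids for glutamine. SLC7A5 was scarce, at 11 to 26 reads per library, or −0.72 to 0.19 log2 CPM in summer and −0.53 to 0.20 in winter. It was not called, at 0.085 on the log2 scale (SE 0.27, adjusted p = 0.822). The 95% interval, from −0.48 to 0.65, holds changes in either direction. The sign itself depended on the processing, with −0.0095 when libraries were scaled by their totals and −0.040 without bear 1305.

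SLC3A2 was at 3.71, 4.10 and 4.40 log2 CPM in summer and 3.64, 4.20 and 4.57 in winter (lowest, median, highest), and the seasons overlapped. It was not called, at 0.088 on the log2 scale (SE 0.15, adjusted p = 0.674), with a 95% interval from −0.24 to 0.42. Bear 1509 was lowest at −0.49 and bear 1512 highest at 0.48. The season differences of the 2 chains differed by −0.015 ± 0.35, SLC3A2 minus SLC7A5 (mean and SD over the bears, 95% interval −0.38 to 0.35). The exact two-sided sign-flip permutation test over 6 bears gave p = 0.9375, also after adjustment over both pairs. The difference ranged from −0.54 to 0.29 in single bears.

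SLC7A1, the carrier CAT1 of arginine and lysine, was at 2.62, 3.11 and 3.88 log2 CPM in summer and 3.03, 3.46 and 3.84 in winter. It was not called, at 0.21 on the log2 scale (SE 0.20, adjusted p = 0.426), and the 95% interval was −0.22 to 0.65. With 1 bear left out it ran from 0.098, without bear 1512, to 0.40, without bear 1317, and was never called. It was higher in 3 of 6 bears, by up to 0.91 in bear 1512, and lower in the others, by up to 0.50 in bear 1317. The ranges of both seasons overlapped.

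**Figure D3:**
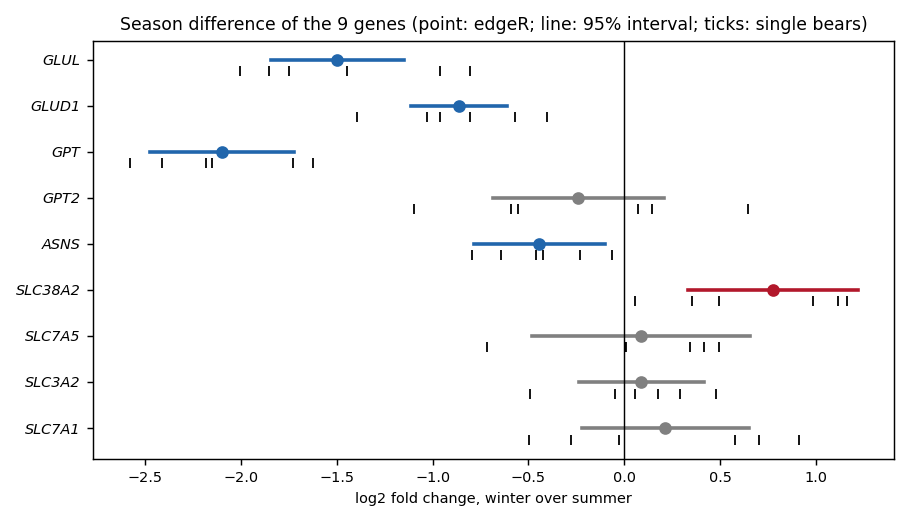
Winter over summer log2 fold change of the 9 genes (horizontal axis), with the edgeR estimate as a point, its 95% interval as a line and the 6 single bears as ticks below it. Blue genes fell and the red gene rose at an adjusted p below 0.05, and the intervals of the 4 grey genes include 0.

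The bears did not take the same order in each gene. Bear 1509 had the smallest fall of GLUL, GLUD1 and ASNS, and bear 1511 that of GPT. Bear 1511 also had the lowest difference of SLC38A2 and the highest of GPT2. The winter libraries of both bears lay nearest to summer on the first principal component, as given above, and a link was not tested. Leaving out the winter library of bear 1509, an alternative chosen after the data were seen, gave 5 called genes again, 1 higher and 4 lower.

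A biopsy mixes cell types, and fewer cells of a type and less RNA per cell cannot be told apart. Of the other cell types checked by markers, the endothelial genes (4 of 6 lower, 1 higher) summed to 588 to 921 CPM in summer and 396 to 460 in winter. The fibroblast genes (3 of 5 lower) summed to 3062 to 7896 and 228 to 1282 CPM, and the satellite cell genes (4 of 4 lower) to 13.6 to 24.3 and 3.90 to 5.96. Among the fibroblast genes, COL1A1, COL3A1 and LUM were at −4.59, −4.17 and −1.93 on the log2 scale. PDGFRA (−0.49, adjusted p = 0.0772) and DCN (−0.75, adjusted p = 0.0848) were not called. The adipocyte genes (1 of 5 higher, 1 lower) ran from 297 to 1375 and from 216 to 459 CPM, the macrophage genes (2 of 5 lower) from 52.9 to 104 and from 39.7 to 68.6, and the smooth muscle genes (1 of 4 lower) from 100.4 to 159 and from 66.3 to 131. LEP, an adipocyte marker, and CALCR, a satellite cell marker, were at 0 reads in some library, the others in none. GLUL is also made by several of these cell types, and their part in its fall was not tested.

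Among fibre markers, 1 of the 8 general genes was higher and 3 were lower. Of the slow fibre genes 1 of 5 was lower, at 7628 to 13927 CPM in summer and 7463 to 11694 in winter, and of the fast fibre genes 2 of 5 were lower, at 22349 to 39445 and 20871 to 24145 CPM. The liver is rich in GPT. Of its 4 defining markers, TTR and FGB had 0 or 1 read in every library, while ALB (71 to 294 reads) and APOA1 (189 to 1771 reads) were lower in winter by 1.12 and 2.01 on the log2 scale. The sum of the 4 markers, carried by ALB and APOA1 alone, was at 51.0 to 85.2 CPM in summer and 12.5 to 30.1 in winter. It is therefore no measure of liver RNA, and a link of these reads with GPT was not tested.

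By likeness over the 12 libraries, the genes closest to GPT were GRPEL1 (Pearson r = 0.986), TMEM175 (0.985) and GOT1 (0.982), the last being the cytosolic aspartate aminotransferase. Closest to GLUL were IGSF23 (0.962), SH3RF3 (0.959) and KAZALD1 (0.957), and to GLUD1 ECHDC1 (0.976), CHODL (0.969) and ITGB1BP2 (0.969). CHODL is also 1 of the 4 satellite cell markers above. For ASNS these were DLC1 (0.937), TPMT (0.922) and GAREM1 (0.920), and for SLC38A2 POLQ (0.936), NEB (0.916) and DNAAF2 (0.913). The search covered 10345 named genes, and these correlations are descriptions in which the season itself is shared by all genes.

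Changes of the genes below are on the log2 scale. In a list of 34 other enzymes of glutamine, glutamate, aspartate, asparagine, proline and arginine metabolism, with enzymes that use glutamine to make nucleotides and amino sugars, 27 were tested. Of these, 11 fell (40.7%, against 19.9% of all genes) and 3 rose (11.1%, against 19.6%), with a median log2 fold change of −0.40. GOT1 was at 9.02 to 9.30 log2 CPM in the active bears and at 6.99 to 7.79 in hibernation, and it fell by 1.78 (SE 0.15, adjusted p = 4.08e-06). Its mitochondrial counterpart GOT2, named after its values were seen, fell by 0.67 (SE 0.15, adjusted p = 0.00301), so both aspartate aminotransferases were lower in 6 of 6 bears. ALDH4A1, which turns a product of proline into glutamate, fell by 2.43 (SE 0.22, adjusted p = 7.17e-06), and ASRGL1, an asparaginase, fell by 0.87 (SE 0.13, adjusted p = 0.000258).

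On the rising side, ASS1, which condenses citrulline with aspartate, was at only 1 to 24 reads per library and rose by 2.26 (SE 0.40, adjusted p = 0.000627). PRODH, the proline dehydrogenase, rose by 0.86 (SE 0.16, adjusted p = 0.00084). The third call, GAD1, rested on 133 reads in the winter library of bear 1509 and 3 in that of bear 1511, with 0 reads in every other library. Without the former library, 2 of these enzymes rose.

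Of 43 other amino acid transporters 33 were tested, and 5 rose (15.2%) and 8 fell (24.2%), with a median of −0.14. These shares were near those of all genes, 19.6% and 19.9%. Without bear 1317 the counts were 3 and 5. In that fit 2797 of all 16960 genes rose and 2834 fell, against 3386 and 3445 of 17290 with every bear. SLC7A6 (y+LAT2), a light chain that pairs with SLC3A2, rose from 3.55 to 4.21 log2 CPM in summer to 4.79 to 6.49 in winter, by 2.02 (SE 0.23, adjusted p = 3.26e-05). SLC7A8 (LAT2), another of its light chains, fell from 4.81 to 5.59 log2 CPM to 2.99 to 4.34, a log2 difference of −1.31 (SE 0.21, adjusted p = 0.000287). Neither overlapped between the seasons. Of its further light chains, named after their values were seen, SLC7A7 was not called at −0.50 (adjusted p = 0.0942), and neither was SLC7A11, which had 0 to 7 reads per library.

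SLC38A1, a close relative of SLC38A2 that also takes up glutamine, rose by 1.17 (SE 0.23, adjusted p = 0.0012), and SLC38A9, an arginine-sensing protein of the lysosome, rose by 0.39 (SE 0.12, adjusted p = 0.0171). The SLC38 family did not move as one. SLC38A5 and SLC38A3, named after their values were seen, were lower, at −1.29 (SE 0.44, adjusted p = 0.0308) and −0.49 (SE 0.19, adjusted p = 0.0491). SLC38A4, SLC38A6, SLC38A7, SLC38A10 and SLC38A11 were not called. SLC1A4, a carrier of alanine, serine and cysteine, fell by 1.20 (SE 0.17, adjusted p = 0.000121), and SLC43A2, a carrier of large neutral amino acids, fell by 1.31 (SE 0.23, adjusted p = 0.000674). SLC1A5, the glutamine carrier ASCT2, was named after its values were seen and fell by 0.77 (SE 0.23, adjusted p = 0.0152), in 5 of 6 bears. SLC6A17, another call upward and named after its values were seen, had 94 reads in the winter library of bear 1509 and 0 to 9 in the others.

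ATF4 is the transcription factor through which cells answer a lack of amino acids, and ASNS and many transporters are among its known targets. In a list of 28 genes of this response, 26 were tested, 5 rose (19.2%) and 6 fell (23.1%), with a median of −0.21. These shares, too, were near the 19.6% and 19.9% of all genes. Without bear 1316 the counts were 4 and 3. Over all 16912 genes of that fit 2817 rose and 2838 fell, against 3386 and 3445 of 17290 with every bear. ATF4 itself rose from 7.79 to 8.58 log2 CPM in summer to 8.39 to 8.95 in winter, by 0.59 (SE 0.14, adjusted p = 0.00476), in 6 of 6 bears. DDIT3 (CHOP) rose by 0.91 (adjusted p = 0.00806) and STC2, a secreted glycoprotein, by 1.75 (adjusted p = 0.000146). MTHFD2, of mitochondrial folate metabolism, fell by 1.98 (SE 0.29, adjusted p = 0.000174) and had only 8 to 85 reads per library. CTH, which makes cysteine, fell by 2.25 (SE 0.37, adjusted p = 0.000387) and had only 2 to 55 reads. VLDLR, a lipoprotein receptor, fell by 1.24 (adjusted p = 3.75e-05). In the same 6 bears ASNS transcripts were lower and ATF4 transcripts higher in winter, although the call of ASNS was lost with single bears left out, as given above. Protein and activity of ATF4 were not measured.

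In a list of 31 genes by which mTORC1 senses amino acids, 30 were tested, 9 rose (30%, against 19.6% of all genes) and 3 fell (10%, against 19.9%), with a median of −0.031. Scaled by library totals, 6 rose and 6 fell. Of all 17290 genes, 2706 rose and 3789 fell with that scaling, against 3386 and 3445 with TMM. With the bear as a block 7 rose and 4 fell, where 19.6% of all genes rose and 21.2% fell. The Rag GTPases RRAGB, RRAGD and RRAGC rose by 1.74 (SE 0.12, adjusted p = 1.99e-06), 0.72 (SE 0.14, adjusted p = 0.00135) and 0.47 (SE 0.10, adjusted p = 0.0018). RRAGA, the remaining Rag and named after its values were seen, was not called at 0.18 (SE 0.10, adjusted p = 0.155). KPTN, a subunit of the KICSTOR complex, fell by 1.32 (SE 0.21, adjusted p = 0.00026), the leucine sensor family member SESN1 fell by 0.61 (SE 0.13, adjusted p = 0.00255) and LAMTOR2, of the Ragulator, fell by 0.65 (SE 0.23, adjusted p = 0.0383).

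**Figure D4:**
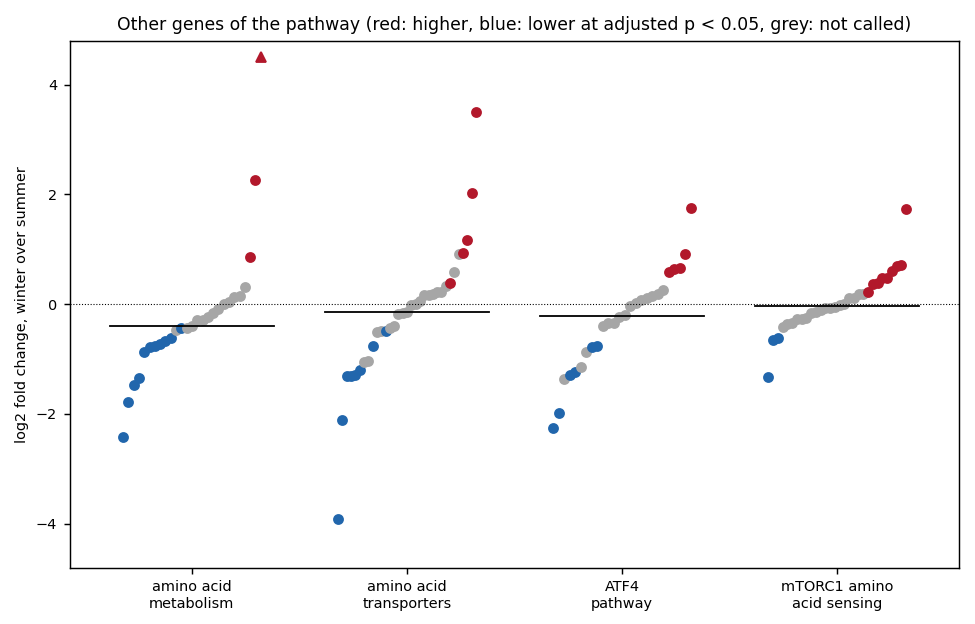
Winter over summer log2 fold change (vertical axis) of every tested gene in the 4 lists of related genes, sorted within each list, with red for genes that rose, blue for genes that fell and grey for genes not called, and a black line at each median. The red triangle is GAD1, whose fitted value lies beyond the axis and rests on 2 libraries, and of the lowest transporter, SLC7A13, no library held more than 22 reads. Red points are 3, 5, 5 and 9 in number from left to right, and blue points 11, 8, 6 and 3.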

How the data were processed

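Poly-A RNA of 12 muscle biopsies was made into stranded libraries and read as single reads of 50 bases. The authors aligned the reads to the assembly ASM358476v1 with TopHat, and deposited raw counts per gene made with featureCounts on the strand of the gene, with no normalization. The submitters' processing notes name TopHat2 2.1.1, Bowtie2 2.2.9 and featureCounts 1.6.2. Which libraries shared a lane is not given in the sources used here, so a lane effect was not tested.

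Genes with at least 30 reads in total were kept, scaled by TMM and fitted with edgeR 4.0.16 (glmQLFit and glmQLFTest, R 4.3.3) with season as the only term. A call was an adjusted p below 0.05 over all genes tested. A prior count of 2 was used for log2 CPM. The animal numbers pair the libraries, since both biopsies came from the same individual. Libraries of 1 bear correlated at 0.0903 to 0.344 in their deviation from the season mean. Between different bears the median was −0.0634 and the highest value 0.142, so the ranges overlapped.

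Alternatives were a replicate block for the bear, DESeq2 1.42.0, limma 3.58.1 (voom), RLE scaling, library totals, other filters, stricter limits and each bear left out. The code was tested on simulated data. Of 18 groups of 6 member values, 0 had a sample beyond the Dixon limit of 0.625. The largest gap ratio, 0.6247 for ASNS in the summer library of bear 1317, lay just below that limit.

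The members and lists were chosen with earlier results of these data known. Named list genes were the 3 with the lowest adjusted p in each direction among those called, and for each called member the 3 most correlated genes of at least 1 log2 CPM. PRODH and SLC36A2 are LOC entries in the table, given their symbols by gene ID from a RefSeq table of another bear assembly. Single values of some listed genes are not reported here.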

Additional observations from a re-analysis of the deposited data

How the results depend on the processing

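Among the 9 genes, 5 were called with the replicate block in edgeR and in DESeq2, in DESeq2 and limma voom without it, and with RLE scaling, library totals, no filter or filterByExpr. The replicate block changed no call of a member, and with it 16, 13, 12 and 11 genes were called in the metabolism, transporter, ATF4 and mTORC1 lists, against 14, 13, 11 and 12 without. Of 135 member values under the alternatives, 128 kept their direction and side of the threshold and 5, all of ASNS with 1 bear left out, lost the call. The other 2 were SLC7A5, which turned to −0.0095 with library totals and −0.040 without bear 1305, and ranged from −0.040 to 0.28 as each bear was left out. SLC3A2 minus SLC7A5 ranged from −0.075 to 0.091 and was positive without bear 1305 (0.091) or 1511 (0.055). GPT2 minus GPT ranged from 1.80 to 1.99 with 1 bear left out, where no p was computed. At an adjusted p below 0.01 with a fold change above 1.3 or below 0.77, 4 members were called (24.0% of all genes). By these limits 12 of 27 genes of the metabolism list were called, 2 higher and 10 lower. The counts were 6 of 33 transporters (2 higher, 4 lower), 6 of 26 ATF4 genes (3 higher, 3 lower) and 7 of 30 mTORC1 genes (5 higher, 2 lower). Leaving out each bear gave 8 to 13 transporters, the lowest without bear 1317, and 7 to 11 ATF4 genes, the lowest without bear 1316. Calls over all genes fell as well, from 6831 of 17290 with every bear. They ran from 5256 of 16860 without bear 1305 to 6495 of 16764 without bear 1509. Library totals moved the median of all genes from −0.0021 to −0.081. SLC7A5 had the fewest reads of the members, 11 to 26 per library. The causes of these changes were not tested.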

Other observations

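Enzymes around proline moved in both directions, a pattern chosen after the values were seen. PRODH, the proline dehydrogenase, rose in 6 of 6 bears from 1.69 ± 0.29 to 2.54 ± 0.17 log2 CPM (mean and SD over 6 bears). The next enzyme toward glutamate, ALDH4A1, fell from 4.91 ± 0.29 to 2.45 ± 0.50. On the side of synthesis, ALDH18A1 fell by 0.77 (adjusted p = 0.00564), PYCR1 fell by 1.34 (adjusted p = 0.00999) and OAT, which joins ornithine to the same intermediate, fell by 0.72 (adjusted p = 0.00177), each in 6 of 6 bears. PYCR3, at −0.23 on the log2 scale (adjusted p = 0.422), was not called. Of the pair that makes arginine from citrulline, ASS1 rose and ASL fell by 0.61 (adjusted p = 0.00946), also in 6 of 6 bears.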
